A study of Mus musculus with 6 samples.

Results

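The zinc finger genes numbered Zfp900 to Zfp999 were examined in fully-grown germinal vesicle oocytes, the stage that waits, still with an intact nucleus, before meiosis resumes. Members were all genes of the deposited table whose mouse symbol was Zfp followed by a number from 900 to 999. There were 60 such genes among 28738 rows, running from Zfp930 to Zfp995. RNA sequencing had been done on 3 control pools and 3 Uba3 conditional knockout (Uba3 cKO) pools of about 150 oocytes each. All mice carried the strain label C57/Bl6/N;129SvEv7, with the genotypes labelled Control and Uba3 cKO. The sources used here do not give the age of the mice, the Cre driver, the deleted part of Uba3 or the number of animals behind a pool. The protein made from Uba3 is part of the E1 enzyme of neddylation, which charges NEDD8 before it is attached to cullins.

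Most numbered Zfp genes encode proteins with a row of C2H2 zinc fingers, small zinc-binding folds that read DNA, and many begin with a KRAB domain. The KRAB domain binds the scaffold protein TRIM28, which brings the histone methyltransferase SETDB1 and other silencing factors to the bound DNA, often a retrotransposon. In rodents this family expanded by local duplication, so that neighbouring genes are near copies of each other. The clusters at the distal ends of chromosomes 2 and 4 and the cluster on chromosome 17 are well-known examples. Several KRAB zinc finger proteins act in oocytes and early embryos, where they keep imprints and hold retrotransposons silent.

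Values are the authors' normalized values on a log2 scale, and no read depth was used. Within groups, libraries correlated at 0.997 to 0.998 over the 17450 genes tested. Uba3 itself had log2 values of 11.37, 11.46 and 11.34 in control and 10.03, 10.16 and 10.36 in Uba3 cKO libraries, lower in each of the latter. The difference was -1.21 (SE 0.10), with a two-sided exact permutation p of 0.1, which is the lowest value 3 libraries a group can reach. All 10 listed oocyte markers passed the filter, and their summed linear level was 423045 to 481885 in control and 375577 to 413904 in Uba3 cKO libraries. Zp2 and Bmp15 among them were called lower. Of 32 tested markers of other ovarian cell types, 2 were called higher and 9 lower, where 5.64% of all tested genes were higher and 2.5% lower. All 10 theca, stroma and luteal markers had a difference below 0, where 48.2% of all tested genes were above 0. The summed level of the theca, stroma and luteal markers was 3351 to 5389 in control and 2362 to 3027 in Uba3 cKO libraries, and 5 of the 10 fell. That of the granulosa and cumulus markers was 17630 to 21120 and 15311 to 20101, with Fshr and Kitl called higher and Inhba lower. For blood and immune markers it was 546 to 662 and 502 to 550, and for endothelial markers 3655 to 3988 and 3731 to 4250. The deposited values hold no exact 0, so a value above 0 does not show that a marker was detected. Cd52 lay between 0.54 and 0.57 and C1qa between 3.27 and 3.35, and both missed the filter. The part of such cells in the results below was not tested. In pooled cells, fewer cells of a type and less RNA per cell cannot be told apart.

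Because copies decide what a read can be assigned to, the sequences are shown first. Transcripts of GENCODE M21, which annotates the earlier build GRCm38, were split into all 100-base windows, and the share of a gene's windows that also occur in another gene was counted. The median share over the 60 members was 4.24%, with a range from 0 to 100%. In 15 members no window was shared, and in 10 members 50% or more were. In coding sequence, 30 members were 80% or more identical to another gene. The longest coding models held a median of 11 C2H2 fingers of the standard spacing and at most 21, in Zfp974, while those of Zfp957, Zfp972 and Zfp993 held none.

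A stretch of 168 coding bases, covering a pair of adjacent fingers and the linkers after them, shows how close the copies are. Zfp967 and Zfp968, on chromosome 2, are identical over this stretch and over their whole coding sequence, so only Zfp968 (coding bases 538 to 705) is shown. Zfp984 and Gm13212, a gene of the same chromosome 4 cluster that is not adjacent to it, are identical over coding bases 718 to 885. Zfp947 and Zfp995, on chromosome 17, differ at 11 of the 168 positions (coding bases 553 to 720), which are in capitals.
Zfp968: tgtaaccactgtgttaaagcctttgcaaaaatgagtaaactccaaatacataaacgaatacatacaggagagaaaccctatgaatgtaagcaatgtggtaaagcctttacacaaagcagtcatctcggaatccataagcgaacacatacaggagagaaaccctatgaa
Zfp984: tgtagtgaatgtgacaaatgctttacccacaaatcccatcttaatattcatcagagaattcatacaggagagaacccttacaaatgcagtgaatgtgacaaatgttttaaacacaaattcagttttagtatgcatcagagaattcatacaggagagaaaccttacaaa
Zfp947: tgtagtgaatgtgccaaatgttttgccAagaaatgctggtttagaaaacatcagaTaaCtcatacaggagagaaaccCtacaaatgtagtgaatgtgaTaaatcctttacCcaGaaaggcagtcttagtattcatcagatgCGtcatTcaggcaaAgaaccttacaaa
Zfp995: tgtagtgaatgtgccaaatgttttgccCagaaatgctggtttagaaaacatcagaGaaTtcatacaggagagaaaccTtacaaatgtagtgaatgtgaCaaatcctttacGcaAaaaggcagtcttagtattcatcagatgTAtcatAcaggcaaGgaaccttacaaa
A read inside this stretch could not tell Zfp967 from Zfp968, or Zfp984 from Gm13212. Zfp947 and Zfp995, 95.0% identical over the coding sequence, shared 0.18% of the 100-base windows of Zfp947 and 8.54% of its 50-base windows. Of the 50-base windows of Zfp947, 20.05% occurred in some other gene.

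Of the 60 members, 55 passed a filter on low values, which asked for a linear value of 10 or more in at least 3 libraries. The 5 that did not were Zfp965, Zfp966, Zfp967, Zfp968 and Zfp973, all in the distal chromosome 2 cluster. Their deposited log2 values lay between 0.21 and 2.12 in every library. They were also the 5 members with the largest shared part, 73.2 to 100% of windows. The plot of shared windows against level per kilobase shows these 5 genes apart at the lower right. The sources used here do not say how reads that map to several places were treated, so these values do not show that the genes were silent. Among the tested members, Zfp987, Zfp991, Zfp993, Zfp978 and Zfp960 shared 60.5 to 71.9% of their windows, and their differences are uncertain for the same reason. None of these 5 was called in limma, where 8.14% of all tested genes were, and 1 (Zfp978) had an unadjusted p under 0.05.

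**Figure D1:**
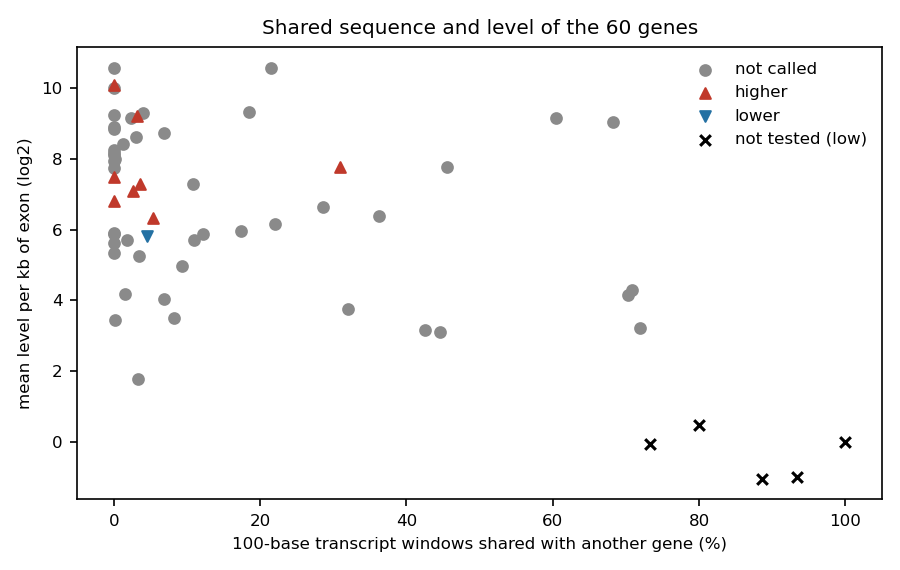
Each point is 1 of the 60 genes, with the percentage of its 100-base transcript windows that occur in another gene on the horizontal axis and its mean level per kilobase of exon (log2, mean over the 2 groups) on the vertical axis. The 5 genes that were not tested (crosses) share 73.2% or more of their windows, and of the 9 called genes only Zfp984 shares more than 10%. In windows of 50 bases, which are not plotted, the 9 called genes share 0.115 to 54.5%, with a median of 17.4%.

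Among tested members the levels differed widely. Per kilobase of annotated exon, the control mean (log2) ran from 1.80 in Zfp941 to 10.70 in Zfp958. Zfp979 followed at 10.59, Zfp951 at 10.13 and Zfp957 at 9.90. Zfp958 and Zfp979 differed by less than the spread between control libraries of Zfp979, which stood at 12.59, 12.79 and 12.50 before division by length. Annotated lengths come from another annotation than the authors used, so this order is approximate.

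In all, 8 members rose and 1 fell in Uba3 cKO oocytes. The 8 were Zfp947, Zfp990, Zfp940, Zfp994, Zfp984, Zfp948, Zfp957 and Zfp956, and the gene that fell was Zfp959. The other 46 were not called at an adjusted p under 0.05 in limma, adjusted over all 17450 genes. Higher members made up 14.5% of the 55, where 5.64% of all tested genes were higher, and the lower member 1.82%, where 2.5% were lower. In both directions together 16.4% of the members were called, against 8.14% of all genes. Of 291 other tested genes with a numbered Zfp symbol, 18 (6.19%) rose and 13 (4.47%) fell. The median log2 difference was 0.03 for the members, -0.01 for the other numbered Zfp genes and -0.01 for all genes, so the middle of the group lay close to that of all genes. No test of these shares against each other was made.

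**Figure D2:**
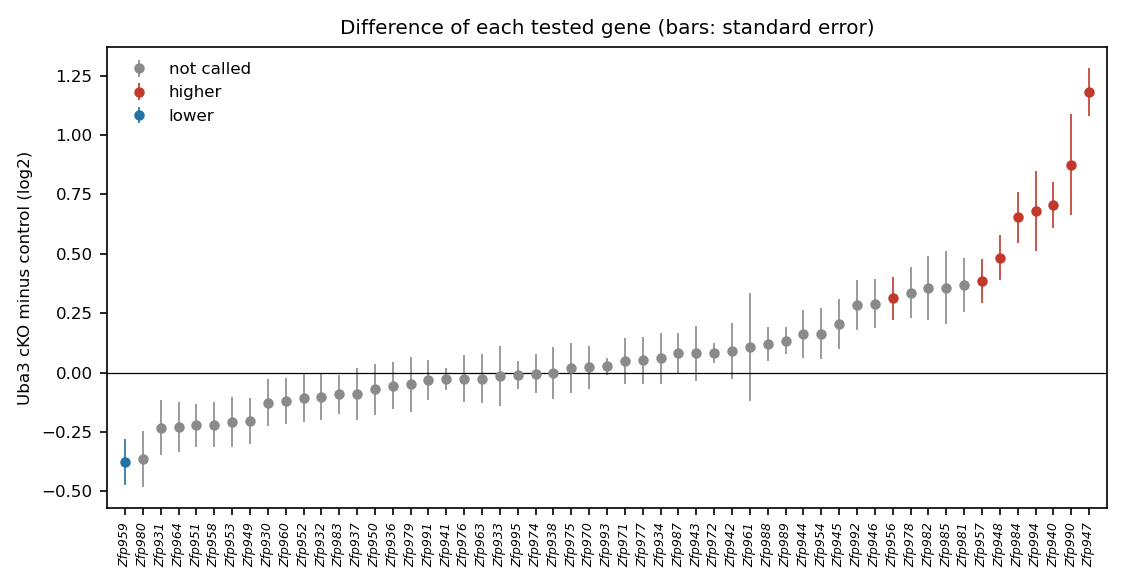
The difference Uba3 cKO minus control (log2, vertical axis) is shown for each of the 55 tested genes, in rising order, with bars of 1 standard error and colours for the call. Differences run from -0.38 in Zfp959 to 1.18 in Zfp947, and most points lie near 0.

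Zfp947, on chromosome 17 (ENSMUSG00000063383), changed most. Its log2 values were 8.13, 7.95 and 8.01 in control libraries 1, 2 and 3 and 9.30, 9.20 and 9.14 in the Uba3 cKO libraries. Every Uba3 cKO library was more than 1 log2 unit above every control library. The difference was 1.18 (SE 0.10, adjusted p = 2.08e-05), which is 2.27-fold. Zfp995, the near copy shown above, stood at 5.09, 5.10 and 5.13 in control and 5.11, 5.11 and 5.07 in Uba3 cKO libraries, where its groups overlapped (difference -0.01, SE 0.06). A direct test between the 2 genes was not made.

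Zfp940, on chromosome 7 (ENSMUSG00000050855), is a member with no close copy, at most 57.4% identical in coding sequence to any gene compared. It stood at 9.60, 9.83 and 9.79 in control and 10.45, 10.42 and 10.47 in Uba3 cKO libraries. The Uba3 cKO libraries lay close to each other and all above the controls. The difference was 0.71 (SE 0.10, adjusted p = 7.05e-04), a 1.63-fold higher level.

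Zfp984, on chromosome 4 (ENSMUSG00000078495), stood at 8.97, 8.93 and 9.06 in control and 9.77, 9.45 and 9.70 in Uba3 cKO libraries. It rose by 0.65 (SE 0.11, adjusted p = 0.00240), and the groups did not overlap. It is the called member with the most shared sequence, 30.9% of windows, of which most (26.7% of all) are shared with Gm13212. Gm13212 was also called higher (0.63, SE 0.15, adjusted p = 0.0220), and reads of this pair could have been divided either way. The noncoding Gm20707 (difference 0.01, not called) overlaps Zfp984 on the same strand and shares 4.24% of its windows. Reads of Zfp984 and Gm20707 may not be separable either.

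Zfp948, on chromosome 17 (ENSMUSG00000067931), shared no 100-base window with another gene. Its values were 7.971, 7.997 and 7.999 in control and 8.468, 8.425 and 8.524 in Uba3 cKO libraries. Both groups were tight and lay apart. The difference was 0.48 (SE 0.10, adjusted p = 0.00727).

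Zfp947, Zfp940, Zfp984 and Zfp948 stayed called without any single library and under each other alternative setting. The other 5 calls each ended without some library, as follows.

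Zfp990, at one end of the chromosome 4 cluster (ENSMUSG00000078503), had the second largest difference and the widest spread of the called members. It stood at 8.83, 8.50 and 8.64 in control and 9.95, 8.85 and 9.78 in Uba3 cKO libraries. Uba3 cKO library 2 lay just above control library 1, and the other Uba3 cKO libraries about 1 log2 unit higher. The difference was 0.88 (SE 0.21, adjusted p = 0.0217). Leaving out control replicate 2 or 3, or Uba3 cKO replicate 1 or 3, ended the call (adjusted p up to 0.108), as did a fit with no intensity trend (adjusted p = 0.0819). Without Uba3 cKO replicate 2 the difference was 1.21.

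Zfp994, next to Zfp947 on chromosome 17 (ENSMUSG00000096433), stood at 8.78, 8.04 and 8.06 in control and 8.81, 9.05 and 9.06 in Uba3 cKO libraries. Control library 1 reached nearly the lowest Uba3 cKO library, and the other controls lay lower. The difference was 0.68 (SE 0.17, adjusted p = 0.0232). Its call was lost when control replicate 2 or 3, or Uba3 cKO replicate 2 or 3, was left out (adjusted p up to 0.119), and with no intensity trend (adjusted p = 0.0713). The neighbouring model CT030661.1, 85.0% identical in coding sequence, showed the same high control library, with 9.06, 8.08 and 8.28 in control and 9.21, 9.29 and 9.26 in Uba3 cKO libraries.

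Zfp957, on chromosome 14 (ENSMUSG00000071262), and Zfp956, on chromosome 6 (ENSMUSG00000045466), had no other member within 1 megabase. Zinc finger genes outside this numbering were not counted. Zfp957 rose from 11.61, 11.64 and 11.52 in control to 12.01, 11.84 and 12.08 in Uba3 cKO libraries, with no overlap. The difference was 0.39 (SE 0.09, adjusted p = 0.0215), and omitting control replicate 3, or Uba3 cKO replicate 1 or 3, ended the call (adjusted p up to 0.109). Zfp956 rose from 10.62, 10.63 and 10.66 to 10.92, 10.91 and 11.02, also with no overlap. Its difference of 0.31 (SE 0.09, adjusted p = 0.0467) lost its call whichever of the 6 libraries was left out (adjusted p from 0.0658 to 0.164), and also with median centring (adjusted p = 0.0631) or no filter (adjusted p = 0.0935).

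Zfp959, on chromosome 17 but outside its cluster (ENSMUSG00000003198), was the member that fell. It stood at 7.30, 7.30 and 7.32 in control and 6.89, 6.83 and 7.07 in Uba3 cKO libraries, which all lay below the controls. The difference was -0.38 (SE 0.10, adjusted p = 0.0299), a 1.30-fold lower level. It was not called once control replicate 2 or 3, or Uba3 cKO replicate 1 or 2, was omitted (adjusted p up to 0.114). Its coding sequence is 92.2% identical to that of Zfp119b, with which it shares 2.48% of windows.

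**Figure D3:**
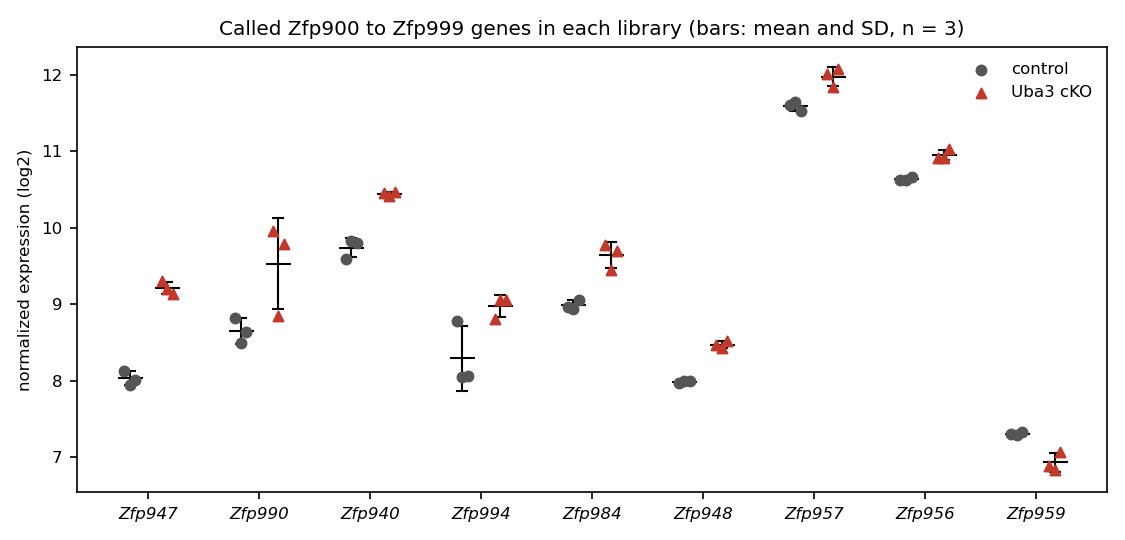
Normalized expression (log2, vertical axis) is plotted for the 9 called genes in each library, with control libraries as circles, Uba3 cKO libraries as triangles, and bars for the mean and SD (n = 3). The groups do not overlap for any of the 9, and the widest spreads are those of the Uba3 cKO libraries of Zfp990 and the control libraries of Zfp994.

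Over all tested members the groups did not overlap for 13 genes that were higher and 6 that were lower in Uba3 cKO libraries, 34.5% of the members against 27.9% of all genes. Among the other numbered Zfp genes the share was 34.4%, close to that of the members. Of the members without overlap, 10 were not called. On the higher side the 5 not called were Zfp946, Zfp978, Zfp981, Zfp989 and Zfp992, with differences of 0.29, 0.34, 0.37, 0.13 and 0.28. On the lower side they were Zfp980, Zfp951, Zfp949, Zfp953 and Zfp983, with -0.36, -0.22, -0.21, -0.21 and -0.09. Zfp980 stood at 9.98, 10.15 and 9.71 in control and 9.48, 9.62 and 9.64 in Uba3 cKO libraries (adjusted p = 0.0739). It passed the threshold after the length and GC correction (adjusted p = 0.0433) and without control replicate 3 (adjusted p = 0.0453). Of its windows 45.6% were shared, with 39.2% of all found in Rex2 and 34.3% in Zfp600. Rex2 was called higher (0.36), and Zfp600 had a difference of 0.58 without a call. Reads of Zfp980 and these 2 genes may not be separable.

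The 4 members with the highest control means were not called. Among members not called, the 21 with the highest mean had control means from 9.01 to 12.62 and adjusted p from 0.0702 to 0.999, 7 with a difference above 0 and 14 below. Zfp979 (-0.05), Zfp951 (-0.22), Zfp958 (-0.22) and Zfp930 (-0.13) led this set. Zfp932, a repressor of endogenous retroviruses in embryonic stem cells together with its paralog Gm15446, had -0.10 (SE 0.10). Zfp936 had -0.05, Zfp952 -0.11, Zfp964 -0.23, Zfp960 -0.12, Zfp933 -0.01, Zfp931 -0.23, Zfp950 -0.07 and Zfp938 -0.00. Zfp942, Zfp944, Zfp943 and Zfp982 had 0.09, 0.16, 0.08 and 0.36, and Zfp982 passed the threshold without Uba3 cKO replicate 1 (0.53, adjusted p = 0.0265). Zfp961 varied most between libraries of a group, with 10.80, 11.05 and 11.05 in control and 11.11, 10.39 and 11.72 in Uba3 cKO libraries, so that its difference of 0.11 had an SE of 0.23. The remaining 25 had control means from 3.50 to 8.86 and differences from -0.21 to 0.37.

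The tested members of the chromosome 4 and 17 clusters were mostly above 0. A cluster was taken as members less than 1 megabase from the next member, by their positions in GENCODE M21. Over all tested genes, 48.2% had a difference above 0 and 5.64% were called higher, and at an unadjusted p under 0.05 in limma 13% were higher and 9.78% lower. On chromosome 4, 15 members were tested, 11 had a difference above 0, Zfp990 and Zfp984 rose and none fell, with a median of 0.13. At an unadjusted p under 0.05 in limma, 8 of them were higher and 1 (Zfp980) was lower. On chromosome 17, 10 were tested, 8 had a difference above 0, Zfp947, Zfp994 and Zfp948 rose and none fell, with a median of 0.18. Here 4 were higher and 0 lower at an unadjusted p under 0.05. On distal chromosome 2, 4 members were tested and none was called in limma, nor had any an unadjusted p under 0.05 (median difference 0.03). Over the 30 members outside the chromosome 4 and 17 clusters, 3 rose, 1 fell and 11 were above 0, with a median of -0.02. The difference between locations was not tested, and copies within a cluster share sequence and are not independent.

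Other genes inside these clusters were called as well. Of 12 tested on chromosome 17, 5 rose and 1 fell, where 5.64% of all tested genes were higher and 2.5% lower. Zfp820, also a zinc finger gene, stood at 10.72, 11.12 and 11.29 in control and 11.90, 11.79 and 11.89 in Uba3 cKO libraries (0.82, SE 0.13, adjusted p = 0.00135). The pseudogene model CT009755.2 rose by 0.78, AC154486.3 by 0.63 and CAAA01141682.1 by 0.46, and CT030661.1 by 0.78. The pseudogene model AC154707.1, with which Zfp947 shares 1.44% of windows, fell by 0.64 (SE 0.16). It overlaps Zfp943 on the opposite strand, and CAAA01141682.1 overlaps Zfp983 on the same strand, so that reads of these pairs may not be separable. Of 13 tested on chromosome 4, Gm13212 and Rex2 (0.36, adjusted p = 0.0488) rose and the noncoding Gm16211 fell by 0.97. Zfp600 had 0.58 but was not called (adjusted p = 0.102), with 8.47, 7.31 and 7.85 in the Uba3 cKO libraries. In the distal chromosome 2 cluster 19 other genes were tested, of which 0 rose and 1 (Gm14295) fell. Among 6 tested between the 3 clustered members on chromosome 8, none was called.

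**Figure D4:**
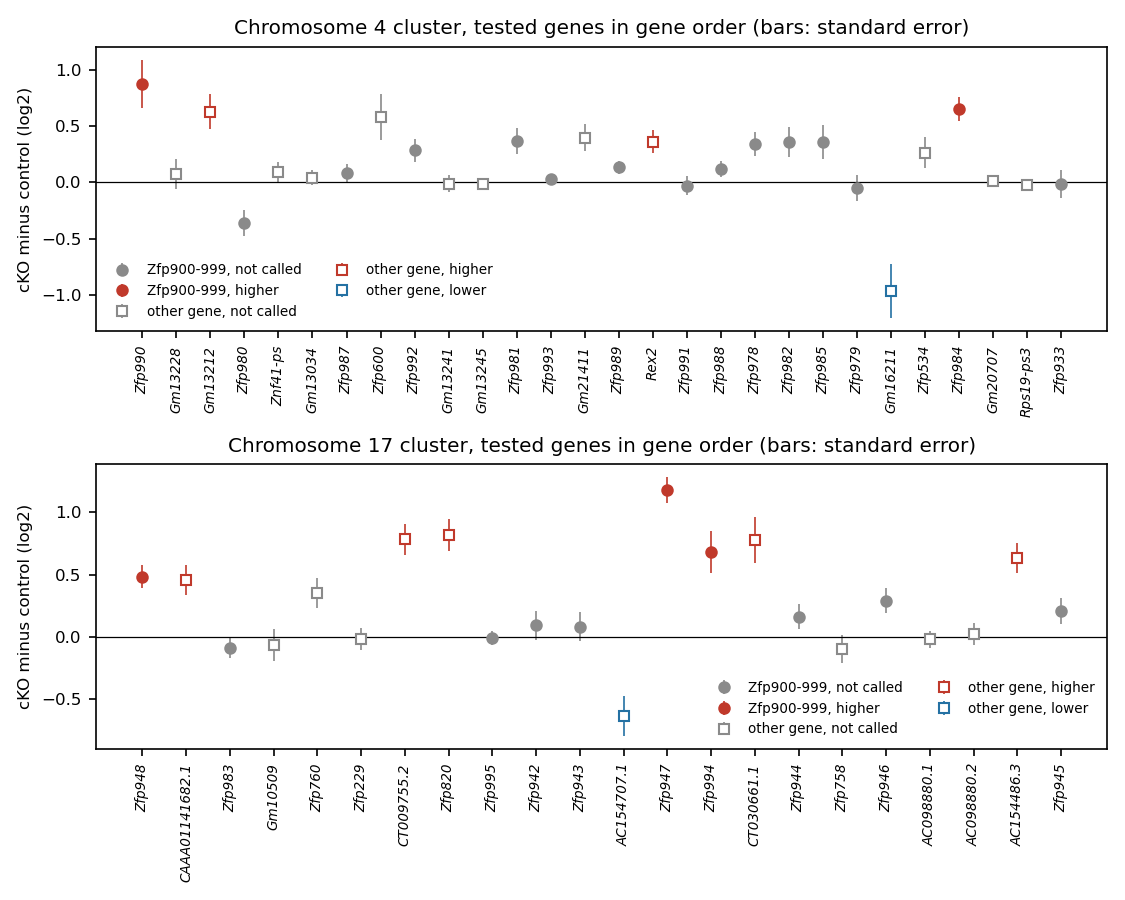
Differences Uba3 cKO minus control (log2, bars of 1 standard error) are shown for the tested genes of the chromosome 4 and chromosome 17 clusters in gene order, with filled circles for Zfp900 to Zfp999 genes and open squares for other genes. Called genes are spread along both clusters, with genes that were not called among them. On chromosome 17, AC154707.1 (lower) is followed directly by Zfp947, Zfp994 and CT030661.1 (all higher). Zfp948 and CAAA01141682.1 are also adjacent there and called higher, as are CT009755.2 and Zfp820.

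A promoter window of 250 bases before to 50 after the gene start was found in RefSeq (GRCm38.p6) for 52 members, and 1 per gene was used. The windows held a median of 7.5 CpG sites in members, 15 in 255 other numbered Zfp genes and 7 in all 27025 promoters. The windows of Zfp947, Zfp994 and Zfp984 are shown because they share a 13-letter word, TATTGGGCGGGTC, across both clusters, and that of Zfp980 because it holds the word in a gene with a difference below 0. The word, in capitals below, is the longest run of letters that the first 3 windows have in common. The windows are chr17:22165928-22166227 (minus strand) for Zfp947, chr17:22225565-22225864 (minus) for Zfp994, chr4:147809739-147810038 (minus) for Zfp984 and chr4:145670447-145670746 (plus) for Zfp980, each printed along the gene's own strand.
Zfp947: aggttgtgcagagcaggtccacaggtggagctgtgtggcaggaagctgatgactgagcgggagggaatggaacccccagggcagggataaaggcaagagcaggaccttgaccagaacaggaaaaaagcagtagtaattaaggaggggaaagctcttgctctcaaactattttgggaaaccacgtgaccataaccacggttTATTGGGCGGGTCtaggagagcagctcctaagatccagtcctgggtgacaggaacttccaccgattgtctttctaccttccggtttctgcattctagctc
Zfp994: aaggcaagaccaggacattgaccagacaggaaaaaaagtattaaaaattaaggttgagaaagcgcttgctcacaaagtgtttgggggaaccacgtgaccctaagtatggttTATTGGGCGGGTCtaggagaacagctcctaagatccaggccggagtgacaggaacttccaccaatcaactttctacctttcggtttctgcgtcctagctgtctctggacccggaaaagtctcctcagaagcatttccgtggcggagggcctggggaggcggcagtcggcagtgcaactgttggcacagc
Zfp984: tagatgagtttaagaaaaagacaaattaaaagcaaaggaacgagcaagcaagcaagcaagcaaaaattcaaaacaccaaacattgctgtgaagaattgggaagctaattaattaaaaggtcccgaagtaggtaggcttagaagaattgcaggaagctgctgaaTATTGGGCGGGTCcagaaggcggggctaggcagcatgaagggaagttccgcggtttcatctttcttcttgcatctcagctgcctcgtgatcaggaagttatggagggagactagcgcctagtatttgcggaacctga
Zfp980: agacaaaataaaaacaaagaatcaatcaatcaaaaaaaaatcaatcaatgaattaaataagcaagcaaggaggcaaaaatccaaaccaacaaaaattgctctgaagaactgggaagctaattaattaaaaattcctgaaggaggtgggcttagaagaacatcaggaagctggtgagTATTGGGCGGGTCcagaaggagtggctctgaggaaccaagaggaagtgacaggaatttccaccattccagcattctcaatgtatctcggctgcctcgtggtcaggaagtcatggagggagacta
Searched on both strands, the word was in 10 of the 27025 promoters (0.037%), 8 on chromosome 4 and 2 on chromosome 17. All 10 are genes of the 2 clusters, and in all 10 the word lies on the gene's strand, 47 to 139 bases before the annotated start. Of the carriers, 7 are members (Zfp947, Zfp994, Zfp984, Zfp980, Zfp979, Zfp985 and Zfp988) and 3 are other genes (Gm13212, Rex2 and Zfp600). The word was chosen after reading the promoters of called genes. Apart from the 3 it was read from, Gm13212 and Rex2 were called higher and 5 carriers were not called, with differences from -0.36 (Zfp980) to 0.58 (Zfp600). A match is a description of these letters and not evidence that a factor binds there. The promoter of Zfp948, also called higher in the chromosome 17 cluster, did not hold the word, and no promoter was found for Zfp990.

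Most listed genes of the KRAB silencing machinery were not called. Of 41 listed genes 40 were matched and tested, and 35 were not called. The 3 that rose were 7.5% of the list, against 5.64% of all tested genes, and the 2 that fell were 5%, against 2.5%. Trim28, the scaffold bound by the KRAB domain, stood at 12.70, 12.68 and 12.75 in control and 12.57, 12.59 and 12.57 in Uba3 cKO libraries, a difference of -0.13 that was not called (adjusted p = 0.344). Setdb1, the methyltransferase of the complex, had 0.07 (adjusted p = 0.633). Atrx, a chromatin remodeler that works with DAXX at repeats, stood at 14.41, 14.27 and 14.27 in control and 13.72, 13.84 and 13.55 in Uba3 cKO libraries, and fell by 0.61 (SE 0.09, adjusted p = 8.56e-04). Daxx itself, a histone chaperone, rose by 0.37 (adjusted p = 0.0416), and the remodeler Chd4 by 0.36 (adjusted p = 0.0310). Zfp445, itself a KRAB zinc finger gene that protects imprints and not a cofactor, rose by 0.34 (adjusted p = 0.0448), and the histone methyltransferase Ehmt1 fell by 0.32 (adjusted p = 0.0422). The counts of this list were unstable: without control replicate 1, 2 genes were called higher, and without any other single library 0. In each of these refits 1 gene of the list was still called lower.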

How the data were processed

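RNA was measured in 6 pools of about 150 oocytes, 3 of each genotype. Per the submitters' processing notes, fastp, STAR, featureCounts, DESeq2 and the build GRCm39 were used. The sources used here give no versions, strand setting or handling of multi-mapping reads. The authors deposited 1 table of normalized values, read as log2 from its range (0.0363 to 18.01) with no exact 0. It does not name its transform, and if it is a regularized logarithm, differences of low genes are understated. The design had foreseen log2(value + 1) for linear values, so no pseudocount was added. Library depth is unknown.

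Symbols came from GENCODE M21 (27660 of 28738 IDs, 96.2%), so members known only to later annotations may be missed. Of 64 annotated members 60 were in the table, and the other 4 were not analysed here. Genes with a linear value of 10 or more in at least 3 of 6 libraries were kept (17450). All 6 libraries were compared with limma 3.58.1 (R 4.3.3, intensity trend) on the log2 values, with Benjamini-Hochberg adjustment over all kept genes and a call at 0.05. The fit was tested on simulated data. Nothing in the labels says that different animals gave the pools, and the p-values therefore measure only the spread between these pools, which may be technical. Coding identity used edlib 1.3.9.post1 on each gene's longest coding model, in place of the protein identity first planned, since no protein table was used here, compared with the members and with genes sharing a 50-base window. Named were all called members, then the most highly expressed until 30, near copies and members printed for contrast. Members outside this rule, and genes of the clusters, were named after their values were seen. Members and lists were chosen with earlier results of these data known. Alternatives covered the pseudocount, filter, scaling, variance model, sample weights, replicate block, threshold, a length and GC correction and leaving out each library.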

Additional observations from a re-analysis of the deposited data

How the results depend on the processing

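No named member reversed its direction at a called value. Of the 9 called members, 4 (Zfp947, Zfp940, Zfp984 and Zfp948) kept their call in every refit, and of 21 named members that were not called, 2 (Zfp980 and Zfp982) were called in some. Without single libraries, 4 to 8 members were higher and 0 to 1 lower, where the counts in the full data were 8 and 1. The count of higher members fell to 5 without control replicate 2, 4 without control replicate 3 and 5 without Uba3 cKO replicate 3, and that of lower members to 0 without control replicate 2 or Uba3 cKO replicate 1 or 2. All genes called ranged from 618 to 1637 (780, 618, 681 and 709 without control replicates 2 and 3 and Uba3 cKO replicates 1 and 3), other numbered Zfp genes from 8 to 18 higher and 2 to 12 lower, genes of the KRAB silencing list (cofactors, Zfp57 and Zfp445, counted below as cofactors) from 0 to 2 higher and 1 lower, the members' median from 0.01 to 0.05 and Uba3 from -1.30 to -1.13. At a threshold of 0.01, 4 members were higher and 0 lower, 518 genes were called, other numbered Zfp genes were 8 higher and 1 lower, and cofactors 0 higher and 1 lower. At 0.1, 2 members were lower, 2176 genes were called and 24 other numbered Zfp genes were lower. These counts follow from the threshold itself. After the length and GC correction 2 members were lower. With sample weights 2298 genes were called and 21 other numbered Zfp genes were lower. Without a filter 1 cofactor was higher and 1 lower, under quantile normalization 0 were higher, and with no intensity trend 1 was higher. With the replicate block in limma 7 members were higher and 1 lower. Zfp956 was lost (adjusted p = 0.102), and Zfp990 had an adjusted p of 1.47e-04, where it was 0.0217 in the main fit. With the block 6 other numbered Zfp genes were lower, and 1 cofactor was higher and 1 lower. The block with the length and GC correction, added after seeing the data, gave 1 cofactor lower. The cause of these shifts was not tested. Over all tested genes same-numbered libraries did not deviate together (correlations of -0.09, -0.20 and -0.05), and no library correlated best with its own number. These values over all genes cannot show whether single genes followed the number, and the labels do not say whether libraries were paired. The members' median stayed between 0.00 and 0.05 throughout. Depth is unknown, and sequence shared between copies limits what their values can show.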
